A study of Mus musculus with 16 samples.

Results

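The genes described here mark the cells of the renal arteriole wall, and each was found by its symbol in the table of read counts. They are 10 of the 46078 genes of the table: Akr1b7, a marker of juxtaglomerular (JG) cells, the contractile genes Acta2, Tagln, Myh11 and Cnn1, the pericyte and mural genes Pdgfrb, Cspg4 and Rgs5, and the transcription factor genes Foxd1 and Rbpj. By their labels, the libraries came from cultured mouse JG cells engineered to express YFP from the renin promoter, which all groups share. Cells received either a control miRNA precursor of non-mammalian sequence or miR-106b, and RNA was taken 48 h later. PolyA RNA was isolated from 4 control and 4 miR-106b cultures. RNA bound to immunoprecipitated Ago2 (Ago2-IP), the Argonaute protein that holds miRNAs and their target mRNAs, came from 4 cultures of each kind. The sample titles do not say whether these were the same cultures. The labels call these replicate cultures of 1 cell model, so that p-values measure the spread between cultures and not between animals. Total counts on genes ran from 5692958 to 9459585 in polyA control, 2815272 to 4554848 in polyA miR-106b, 3501909 to 4616424 in Ago2-IP control and 2579086 to 3450269 in Ago2-IP miR-106b libraries.

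JG cells are smooth muscle-like cells of the afferent arteriole that make renin. They descend from stromal progenitors that express the forkhead factor Foxd1, as do the smooth muscle cells, pericytes and mesangial cells of the kidney. Rbpj, the DNA-binding partner of activated Notch receptors, is known to keep renin and contractile genes active in these cells. Contractile genes of smooth muscle are driven by SRF and its coactivator myocardin, and Pdgfrb, the receptor for PDGF-B, is needed to recruit mural cells to vessels.

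The labelled cell type was first set against its markers, of which renin and Akr1b7 were absent or nearly so, while the other renin cell genes were measured. Renin itself (Ren1) had 0 counts in all 16 libraries, which allows up to 0.317 to 1.16 CPM (counts scaled to library size; the level of 3 counts in the deepest and in the shallowest library). Akr1b7, an aldo-keto reductase that follows renin expression in the kidney, had 6 counts in all. These were 1 and 2 counts in polyA control replicates 1 and 2, 2 counts in polyA miR-106b replicate 3 and 1 count in Ago2-IP control replicate 2, and no other library had any. Of the list of 16 renin cell genes, Ren1 was the 1 at 0, and the other 15 passed the filter on low counts. Their sum ran from 1363 to 2218 CPM in polyA and from 1692 to 1778 CPM in Ago2-IP RNA. In polyA RNA most of it came from Nfix, a transcription factor gene of many cell types, at a mean of 1207 CPM, beside Nfib at 104.6, Nfia at 98.3 and Crip1 at 64.7 CPM. Akr1b7 did not pass the filter on low counts, at least 1 CPM in at least 3 of the 4 libraries of any group, and was not tested. The other 9 genes passed, among 14897 genes of the table.

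Transcripts of other cell types were abundant and unevenly spread over the groups. The summed level of 25 cardiac muscle genes made up 2.47 to 3.51% of all counts in polyA control, 4.82 to 8.34% in polyA miR-106b, 11.2 to 11.9% in Ago2-IP control and 10.8 to 11.9% in Ago2-IP miR-106b libraries. None of the 25 was at 0 throughout a group. The sum over 10 endothelial markers ran from 337 to 501 CPM in polyA control, 639 to 1171 in polyA miR-106b and 1441 to 1640 in the Ago2-IP libraries, and that over 10 macrophage markers from 275 to 392, 531 to 879 and 1164 to 1263 CPM. The sum over 10 markers of kidney tubule and podocyte went the other way, from 203 to 475 CPM in polyA RNA and from 3.14 to 32.5 CPM in Ago2-IP RNA. With no count of Ren1 and these other transcripts, JG cell names the label here, and the identity of the cells was not settled by these values. The groups differed in the summed markers of several cell types, and the part of this in the changes of the 10 genes was not tested. In such bulk RNA, fewer cells of a type and less RNA per cell cannot be told apart. Within polyA miR-106b, replicate 1 had the lowest cardiac sum (48239 CPM) and replicate 3 the next (60145 CPM), below replicates 4 (80676 CPM) and 2 (83429 CPM).

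The sequence of the transfected miRNA and its only match among these genes are shown first, since the comparison asks which transcripts respond to miR-106b. Mature miR-106b-5p (RefSeq, GRCm38.p6, chr5:138165787-138165807, minus strand) is given in full with its seed, bases 2 to 8, in capitals, and the stretch of the Rbpj 3′UTR around its seed match with the 7 matching bases in capitals.
mmu-miR-106b-5p: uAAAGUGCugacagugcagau
Rbpj 3′UTR site: tttccatccctGCACTTTggttattcctt
The complement of the seed, GCACTTT, was searched in the longest annotated 3′UTR of each tested gene (GENCODE M21, GRCm38), together with CACTTTA, the match to bases 2 to 7 followed by A. Rbpj held 1 match, GCACTTT at base 1451 of its 3742-base 3′UTR (chr5:53655071-53655077, plus strand). The 3′UTRs of the other 8 tested genes, from 517 bases in Myh11 to 3473 in Rgs5, held neither sequence. Of 13222 tested genes with a 3′UTR, 14.8% held GCACTTT and 22.2% held at least 1 of both sequences.

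The promoters were searched for a further sequence. TGGGAA, the core of the sequence that Rbpj binds, was searched on both strands of promoters from 250 bases before to 50 bases after the start site (RefSeq, GRCm38.p6), which were present for 7 of the genes (Akr1b7, Acta2, Cnn1, Cspg4, Rgs5, Foxd1 and Rbpj). It was found in those of Acta2 and Rbpj, 2 of the 7 genes, and in 25.6% of all 32851 promoters, so nothing particular to these genes is read from it. The Acta2 promoter is printed as the one of a contractile gene that held a match (chr19:34255324-34255623, minus strand), with TGGGAA, which begins 27 bases before the start site, in capitals.
Acta2 promoter: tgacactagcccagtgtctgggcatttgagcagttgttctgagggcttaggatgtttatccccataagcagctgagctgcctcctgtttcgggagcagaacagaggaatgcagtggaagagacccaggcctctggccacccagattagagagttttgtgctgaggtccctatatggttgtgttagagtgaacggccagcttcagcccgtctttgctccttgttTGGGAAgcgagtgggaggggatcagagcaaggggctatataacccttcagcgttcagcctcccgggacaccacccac
The CArG box, the SRF binding sequence, had no perfect match in the promoters of these 7 genes and was found in 1.63% of all promoters. Near matches were not searched. The Acta2 promoter holds ccctatatgg and ccttgttTGG, which each depart from the CArG pattern by a single base. The latter overlaps the TGGGAA in capitals. A match is a description of the letters and not a site in use.

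**Figure D1:**
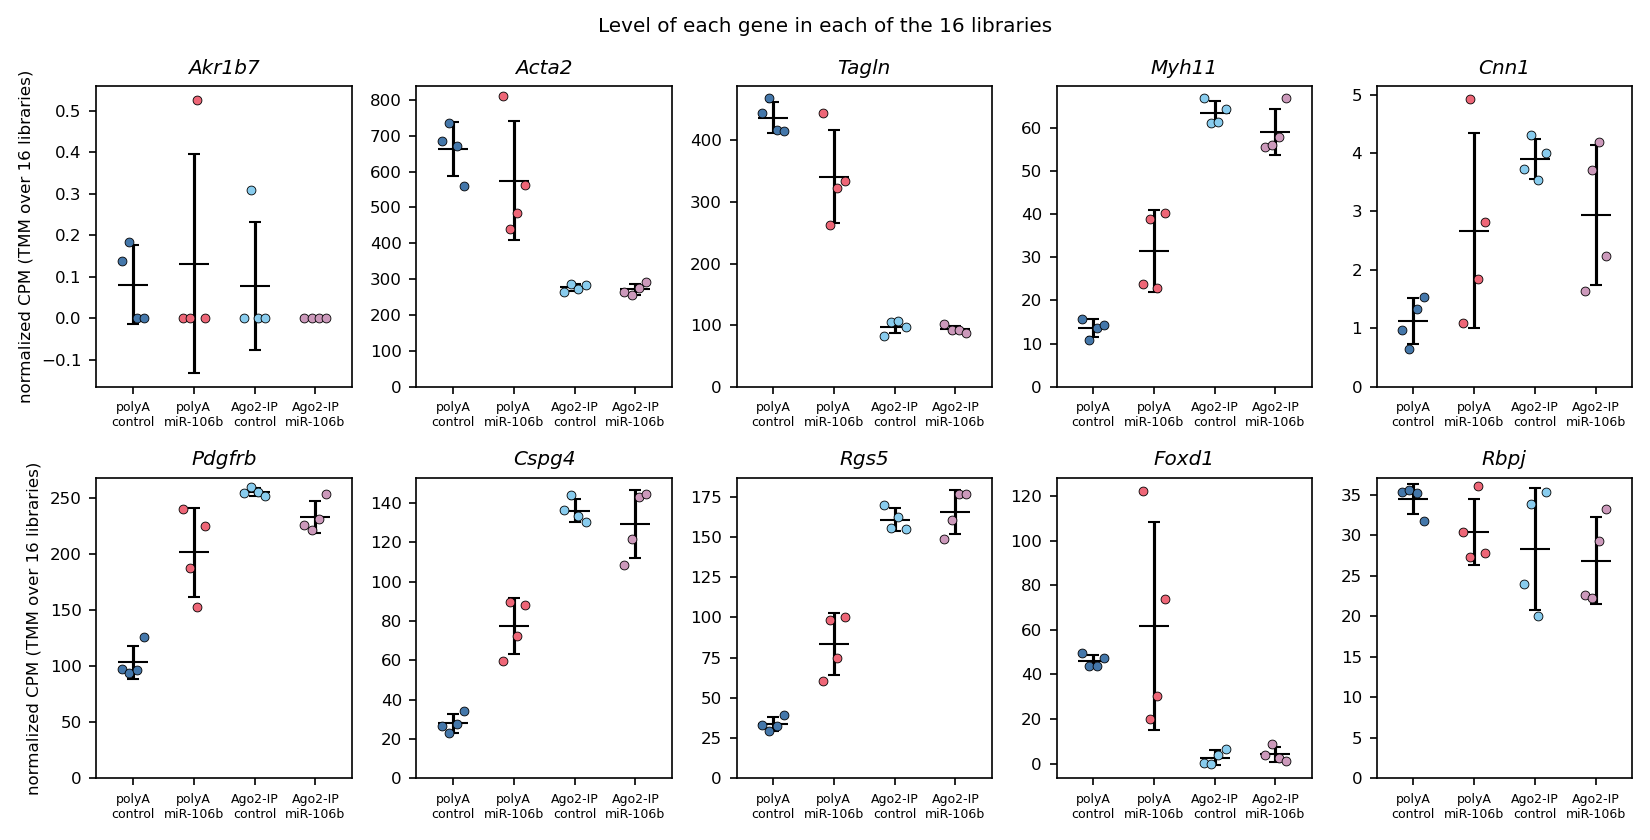
Level of the 10 genes in each of the 16 libraries, as CPM normalized by TMM over all 16 libraries (vertical axis, a scale of its own per gene), by group (horizontal axis). Points are libraries, and bars give the mean and SD of 4. Acta2 and Tagln lie lowest in Ago2-IP RNA, Myh11, Pdgfrb, Cspg4 and Rgs5 lie lowest in polyA control, and Foxd1 is spread from 20.0 to 122 CPM in polyA miR-106b.

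The 10 genes are spread over 8 chromosomes, at chr19:34241090-34255336 (Acta2), chr9:45929628-45936058 (Tagln), chr16:14194527-14291408 (Myh11), chr9:22099281-22109630 (Cnn1), chr18:61045150-61085061 (Pdgfrb), chr9:56865104-56899870 (Cspg4), chr1:169655501-169695813 (Rgs5), chr13:98354242-98356703 (Foxd1), chr5:53466152-53657362 (Rbpj) and chr6:34412334-34423142 (Akr1b7) in GRCm38 by the loci of the count table. Cnn1, Tagln and Cspg4 share chromosome 9 and lie far apart on it.

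Levels per length were compared between genes first, as normalized CPM (TMM within each RNA kind) per 1000 bases of annotated exons. In polyA control RNA the contractile genes stood at both ends of the order. Acta2, which encodes smooth muscle actin, was at 342 ± 38.0 (SD, n = 4) and Tagln, the actin-binding transgelin, at 249 ± 14.8. Pdgfrb followed at 21.4 ± 3.17, then Foxd1 at 10.3 ± 0.642, Rgs5 at 8.39 ± 1.08, Rbpj at 3.06 ± 0.154, Cspg4 at 2.65 ± 0.451 and Myh11 at 2.03 ± 0.309. Cnn1, which encodes the actin-binding calponin 1, was lowest of the tested genes at 0.464 ± 0.163, and the steps between Rbpj and Cspg4 and between Cspg4 and Myh11 were smaller than the SDs of both neighbours added. In Ago2-IP control RNA, Acta2 was again first at 116 ± 4.15, ahead of Tagln (45.0 ± 4.87) and Pdgfrb (42.7 ± 0.225), which did not differ beyond their spread. Rgs5 (32.4 ± 1.40), Cspg4 (10.4 ± 0.362) and Myh11 (7.63 ± 0.374) all stood above Rbpj (2.03 ± 0.544), and Foxd1 was last at 0.502 ± 0.579. The exon length taken for Foxd1, 5064 bases, is longer than its locus in the table, 2462 bases, so its level per length may be understated. The smooth muscle myosin gene Myh11 was the contractile gene after Acta2 and Tagln in both kinds of RNA, at a level far below theirs.

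With miR-106b, 5 of the 9 genes tested changed in polyA RNA, 4 of them higher and 1 lower. The mural genes Pdgfrb, Cspg4 and Rgs5 and the contractile gene Myh11 rose 1.79- to 2.54-fold, and Tagln fell 1.39-fold. Over all genes tested 40.5% were called, 19% higher and 21.5% lower, at an adjusted p under 0.05 (edgeR's quasi-likelihood test with Benjamini-Hochberg adjustment over 14897 genes), and the count of 5 of 9 is read as nothing particular to these genes. The median log2 change was 0.84 over the 9 genes and -0.05 over all tested. Groups did not overlap for 5 of the 9, and for 38.3% of all genes tested.

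The mural genes are taken first. Cspg4 encodes the NG2 proteoglycan of the pericyte surface. Its normalized CPM was 30.1, 26.3, 31.0 and 39.1 in polyA control replicates 1 to 4 and 61.5, 92.1, 75.4 and 92.5 in polyA miR-106b. Every miR-106b library lay above every control library, and the fitted change was 1.35 on the log2 scale (SE 0.16, adjusted p = 0.000676, edgeR). Rgs5, a regulator of G protein signalling in pericytes, was at 37.4, 33.4, 36.8 and 45.0 normalized CPM in control and at 62.4, 101, 78.1 and 105 in miR-106b. As for Cspg4, the groups were apart and polyA miR-106b replicate 1 was the lowest of its group, with a log2 change of 1.18 (SE 0.17, adjusted p = 0.000676, edgeR). Pdgfrb, the PDGF receptor beta, was at 110.2, 107, 108 and 143 in control and at 247, 193, 159 and 237 in miR-106b. Its groups were apart as well (log2 change 0.84, SE 0.15, adjusted p = 0.00116, edgeR), but here polyA miR-106b replicate 1 was the highest of its group.

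The contractile genes did not move together. Myh11, the smooth muscle myosin heavy chain, was at 17.8, 12.25, 15.4 and 16.2 normalized CPM in polyA control and at 24.4, 40.1, 23.9 and 42.2 in miR-106b. All miR-106b libraries were higher, in a lower pair and a higher pair (log2 change 1.08, SE 0.21, adjusted p = 0.00164, edgeR). Cnn1 was at 1.10, 0.733, 1.50 and 1.75 in control and at 1.12, 5.07, 1.93 and 2.96 in miR-106b, from 5 to 19 counts a library. These groups overlapped and the change did not pass the test (log2 1.13, SE 0.48, adjusted p = 0.0782, edgeR), and the value turned on single libraries, with a call without polyA miR-106b replicate 1 (1.52, adjusted p = 0.0136), as with all 16 libraries in 1 fit (1.25, adjusted p = 0.0247), and a value of 0.62 (adjusted p = 0.360) without polyA miR-106b replicate 2. At counts this low, its standard error was larger than that of the other 3 contractile genes.

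Tagln went the opposite way. It was at 503, 532, 469.6 and 472 normalized CPM in polyA control and at 458, 269.7, 338 and 352 in miR-106b. The groups were apart by a narrow gap, between replicate 1 of miR-106b and the control replicates 3 and 4 (log2 change -0.48, SE 0.15, adjusted p = 0.0199, edgeR). The gap depended on the scaling: with TMM over all 16 libraries, that library was at 445.1 normalized CPM, above control replicates 1 (444.65), 3 (417) and 4 (415), and the groups overlapped. The call was lost without polyA control replicate 1 (adjusted p = 0.103), 2 (0.128) or 3 (0.083) and without polyA miR-106b replicate 2 (0.0537). Acta2 was at 775, 836, 755 and 637 in control and at 834, 452, 507 and 592 in miR-106b. Replicate 1 of miR-106b lay among the controls and the other 3 below them, and the change did not pass the test (log2 -0.33, SE 0.18, adjusted p = 0.154, edgeR) unless that library was left out (-0.46, adjusted p = 0.00842). The libraries keep no strand, and of the 1988 exon bases of Tagln 1241 overlap the antisense gene Gm48529, which was not analysed here, and 108 overlap Pcsk7, so that reads of Tagln cannot be told apart from theirs there.

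Neither transcription factor gene passed the test. Rbpj was at 39.9, 40.4, 39.7 and 36.1 normalized CPM in polyA control and at 31.3, 28.0, 37.7 and 29.2 in miR-106b. One miR-106b library, replicate 3, lay within the control range, and the log2 change was -0.31 (SE 0.12, adjusted p = 0.0659, edgeR), or -0.40 (adjusted p = 0.0185) without that library. Foxd1 was even in polyA control, at 56.0, 49.7, 49.4 and 53.9, and was at 126, 20.6, 31.9 and 77.7 in miR-106b. Replicates 1 and 4 lay above all controls and replicates 2 and 3 below them, so that the fitted change (log2 0.30, SE 0.49, adjusted p = 0.664, edgeR) turned to -0.24 without replicate 1.

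**Figure D2:**
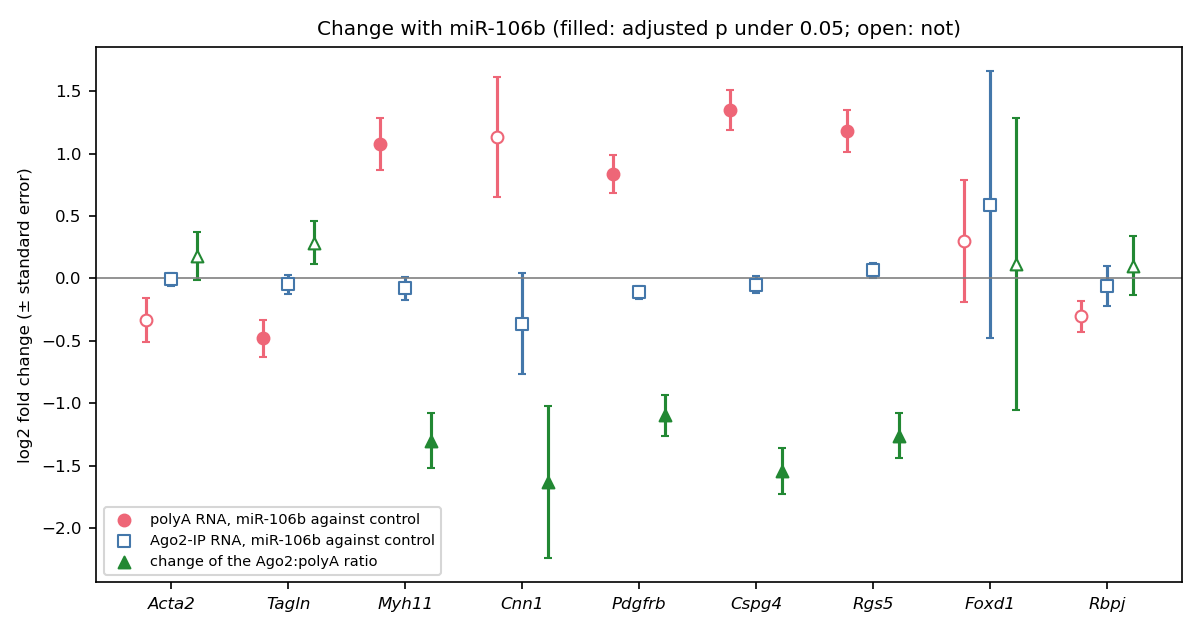
Fitted log2 fold change (vertical axis) of the 9 tested genes (horizontal axis) in polyA RNA (circles), in Ago2-IP RNA (squares) and of the Ago2:polyA ratio (triangles), each with its standard error. Filled symbols have an adjusted p under 0.05. The filled circles of Myh11, Pdgfrb, Cspg4 and Rgs5 lie between 0.84 and 1.35, and that of Tagln lies at -0.48. No square is filled, and the ratio is lower for Myh11, Pdgfrb, Cspg4, Rgs5 and Cnn1.

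In Ago2-IP RNA none of the 9 genes was called, at adjusted p from 0.875 to 0.996 (edgeR). The same held for all genes tested (0%, where 830 genes had an unadjusted p under 0.05, DESeq2's Wald test called 2 and none of the 9 was among those called). Pdgfrb was at 233, 236, 233 and 233 normalized CPM in Ago2-IP control and at 213, 209, 214 and 231 in Ago2-IP miR-106b. All miR-106b libraries were lower, as was the case for 1 of the 9 genes and in either direction for 3.26% of all genes, with a log2 change of -0.11 (SE 0.05) and an unadjusted p of 0.037. With TMM over all 16 libraries, miR-106b replicate 4 (253.3 normalized CPM) lay above control replicate 4 (251.6) and these groups overlapped. Cspg4 was at 125, 131, 122 and 121 against 102, 115, 132 and 131, and Rgs5 at 156, 141, 148 and 144 against 139.7, 151, 163 and 161. Both overlapped between the groups, and their log2 changes were -0.05 (SE 0.07) and 0.07 (SE 0.06).

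The contractile genes were as close between the Ago2-IP groups. Myh11 was at 61.2, 55.3, 55.9 and 59.6 in control and at 52.3, 52.7, 53.5 and 60.8 in miR-106b (log2 change -0.08, SE 0.09). Acta2 ran from 243 to 262 against 242 to 265, and Tagln from 75.7 to 97.0 against 79.5 to 95.6. Their log2 changes, -0.01 (SE 0.05) and -0.05 (SE 0.08), were smaller than their standard errors. Cnn1 rested on 12 to 17 counts a library in control and on 4 to 12 in miR-106b (log2 change -0.36, SE 0.40).

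Rbpj was the gene with the seed match given above. It was at 21.9, 30.7, 18.3 and 32.8 normalized CPM in Ago2-IP control and at 21.3, 21.0, 27.1 and 30.3 in Ago2-IP miR-106b. The ranges lay over each other, the log2 change was -0.06 (SE 0.16, adjusted p = 0.987, edgeR), and no enrichment in Ago2-IP RNA was detectable at this depth. Foxd1 had 1, 0, 14 and 28 counts in Ago2-IP control and 10, 29, 8 and 4 in miR-106b, which gives no usable change (log2 0.59, SE 1.07).

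Between the kinds of RNA, levels were set side by side in control-transfected cells, with TMM over the 8 libraries of the comparison. Of the 9 genes 8 were called, 5 of them higher and 3 lower in Ago2-IP RNA, where 73.3% of all genes tested were called. Myh11, Cspg4 and Rgs5 were 4.60-, 4.81- and 4.70-fold higher (log2 2.20, SE 0.12; 2.27, SE 0.09; and 2.23, SE 0.08), Cnn1 3.48-fold (1.80, SE 0.36) and Pdgfrb 2.43-fold (1.28, SE 0.08). Acta2 was 2.44-fold lower (log2 -1.29, SE 0.07), Tagln 4.55-fold (-2.19, SE 0.08) and Foxd1 15.5-fold (-3.96, SE 0.53). The value of Foxd1 rested on 0 to 28 counts a library in Ago2-IP RNA and was -4.93 without Ago2-IP control replicate 4. Each of the 8 genes called had groups that did not overlap (CPM normalized by TMM over all 16 libraries), as did 66.8% of all genes tested, so that the count is read as nothing particular to these genes. Rbpj overlapped (log2 -0.31, SE 0.14, adjusted p = 0.0508, edgeR) and was called with scaling to library size only (-0.60) and without Ago2-IP control replicate 2 (-0.40), Ago2-IP control replicate 4 (-0.44) or polyA control replicate 4 (-0.35). In miR-106b-transfected cells 6 of 9 were called, 3 in each direction, where 38.4% of all genes were. Myh11 was 1.89-fold higher, Cspg4 1.67-fold and Rgs5 1.99-fold, and Acta2 was 2.12-fold lower, Tagln 3.66-fold and Foxd1 14.1-fold. The call of Foxd1 (log2 -3.82) was lost with the replicate block (-3.57, adjusted p = 0.0647, edgeR), and its log2 value was -4.54 without Ago2-IP miR-106b replicate 2 and -3.22 without polyA miR-106b replicate 1. The groups of the 6 genes called did not overlap, nor did those of 37.2% of all genes tested. Pdgfrb (log2 0.21, SE 0.14, adjusted p = 0.242) and Cnn1 (0.17, SE 0.50, adjusted p = 0.806, edgeR) were no longer called. Each of these comparisons shares a group of libraries with the comparisons within 1 kind of RNA, so that they are not independent of them.

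The change of the Ago2:polyA ratio with miR-106b, which the study used as its measure of miRNA targeting, was tested by an interaction term in a fit of all 16 libraries. It was lower for 5 of the 9 genes and higher for none, where 27.3% of all genes were called, 7.57% higher and 19.7% lower. That split over all genes depended on the scaling: 27.7% of the calls were higher here, and 46.3% with library size only. The median log2 change was -1.10 over the 9 and -0.07 over all genes. The ratio fell by 1.54 on the log2 scale for Cspg4 (SE 0.18, adjusted p = 1.54e-05, edgeR), 1.30 for Myh11 (SE 0.22), 1.26 for Rgs5 (SE 0.18) and 1.10 for Pdgfrb (SE 0.16). That of Cnn1 (-1.63, SE 0.61, adjusted p = 0.0479, edgeR) lost its call without any 1 of 11 of the 16 libraries, and was -1.03 (adjusted p = 0.231) without polyA miR-106b replicate 2. The ratios of Acta2 (0.18, SE 0.19), Tagln (0.28, SE 0.17), Foxd1 (0.11, SE 1.17) and Rbpj (0.10, SE 0.23) did not pass the test, though without polyA miR-106b replicate 1 those of Acta2 (0.39, adjusted p = 0.0243) and Tagln (0.44, adjusted p = 0.0129) did. For Cspg4, Myh11, Rgs5 and Pdgfrb the log2 changes were between 0.84 and 1.35 in polyA RNA and between -0.11 and 0.07 in Ago2-IP RNA.

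Beside these changes stand the cardiac transcripts, which rose in the same polyA libraries: 23 of the 24 cardiac genes tested rose (19% of all genes tested did), with a median log2 change of 1.23, and none was called in Ago2-IP RNA. The level of each gene was therefore also set against the cardiac sum of its own library, as CPM per 1000 CPM of the 25 cardiac genes, a measure chosen after the values had been seen and given without a test. Rgs5 ran from 1.19 to 1.40 in polyA control, 1.19 to 1.36 in polyA miR-106b, 1.18 to 1.32 in Ago2-IP control and 1.25 to 1.41 in Ago2-IP miR-106b. Cspg4 lay at 0.957 to 1.18, 1.08 to 1.31, 1.06 to 1.09 and 0.910 to 1.14 in the same order, and Myh11 at 0.466 to 0.586, 0.415 to 0.502, 0.463 to 0.530 and 0.463 to 0.510. Cnn1, at its few counts, lay at 0.02995 to 0.0569, 0.0228 to 0.0598, 0.0280 to 0.0330 and 0.0139 to 0.0335. On this scale all groups of these 4 genes overlapped in both kinds of RNA and with both transfections.

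For Pdgfrb, Acta2, Tagln, Rbpj and Foxd1 the groups did not all overlap on this scale. Pdgfrb was at 3.50 to 4.36 per 1000 in polyA control and 2.27 to 5.03 in polyA miR-106b, but at 1.97 to 2.07 in Ago2-IP control and 1.85 to 1.93 in Ago2-IP miR-106b. Acta2 was at 18.3 to 34.1 in polyA control, 5.32 to 17.0 in polyA miR-106b and 2.06 to 2.33 in Ago2-IP RNA, and Tagln at 13.5 to 21.7, 3.18 to 9.32 and 0.643 to 0.855. Rbpj was at 1.04 to 1.65, 0.330 to 0.654 and 0.159 to 0.291. For Acta2, Tagln and Rbpj, polyA control, polyA miR-106b and Ago2-IP libraries formed separate ranges in falling order. The cardiac sum itself rose in that order without overlap, so a gene with an even CPM would also fall on this scale. The order is therefore not read as a trait of these genes. Foxd1 was at 1.55 to 2.03 in polyA control and 0.242 to 2.56 in polyA miR-106b, which overlapped, and at 0 to 0.0775 in Ago2-IP RNA. The part of other cell types in the change of any of the genes was not tested.

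**Figure D3:**
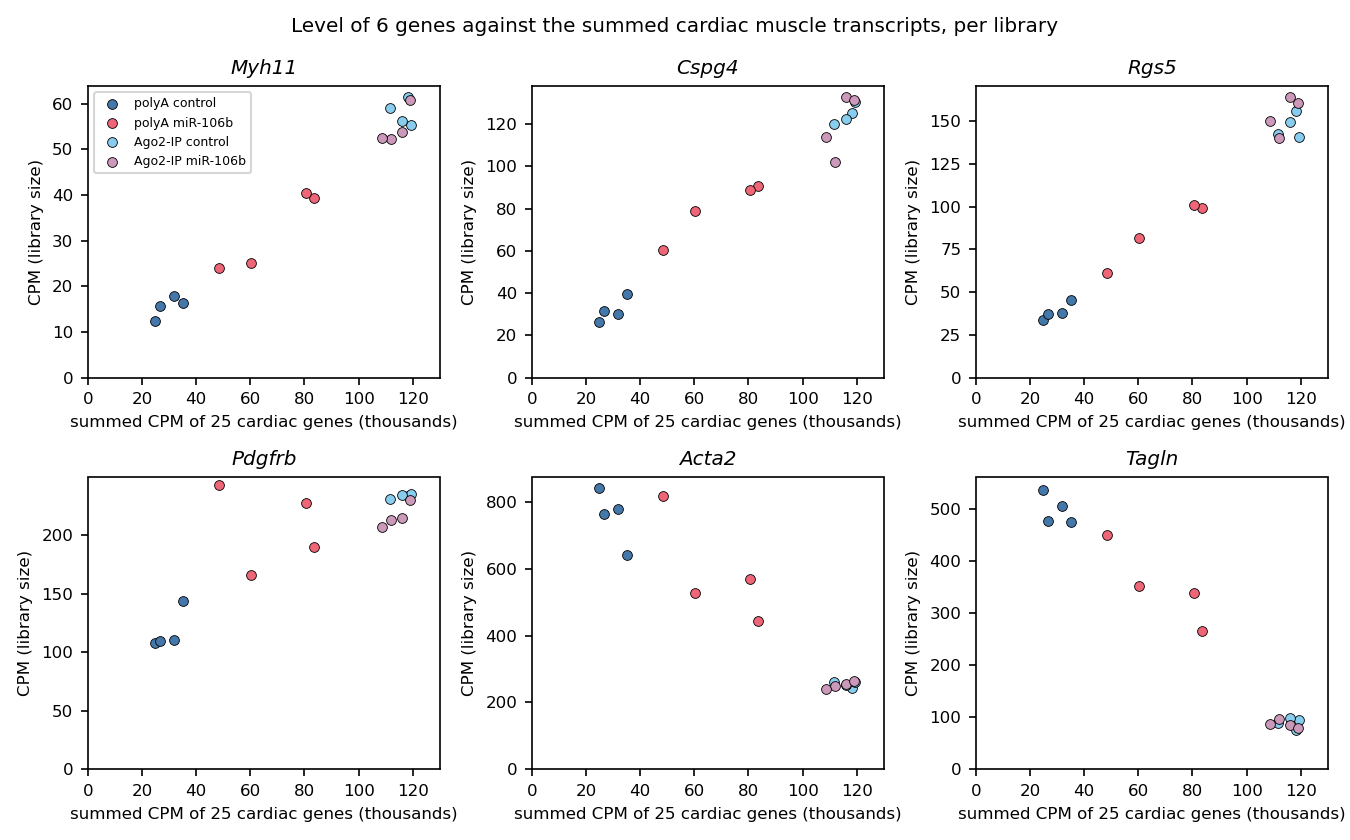
CPM scaled to library size of 6 of the genes (vertical axes, from 0) against the summed CPM of 25 cardiac muscle genes in the same library, in units of 1000 CPM (horizontal axes), for 16 libraries colored by group. Myh11, Cspg4 and Rgs5 lie along a line through the groups, at 1.18 to 1.41 CPM of Rgs5 per 1000 CPM of cardiac genes, while Acta2 and Tagln are lowest where the cardiac sum is highest.

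Genes whose levels ran most like each of these were found over the 16 libraries among the 10947 genes whose mean reached 5 CPM, by Pearson's r of log2 CPM. The libraries share 2 kinds of RNA and their depth, so that high values are common and are given as a description. Those nearest to Acta2 were Cnn3 (r = 0.990) and Marveld1 (0.988), to Tagln Trip6 (0.996) and Tmsb10 (0.996), and to Foxd1 Rspo2 (0.987) and Pax8 (0.986). Nearest to Cspg4 were Slc8a1 (0.998) and Adra1b (0.996), to Rgs5 Tmtc1 (0.998) and Idh3a (0.998), to Myh11 Fem1a (0.997) and Gbas (0.996), and to Pdgfrb Psap (0.992) and Wbp2 (0.991). Rbpj had no such close neighbour, with Sept10 (0.861) and Fbxw17 (0.854) first.

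Other genes of the same families were read for shared reads and direction. Of the aldo-keto reductases next to Akr1b7, Akr1b8 fell in polyA RNA (log2 change -0.77, adjusted p = 0.00272) and Akr1b3 rose (0.51, adjusted p = 0.00471), while Akr1b10 was not called (0.29, adjusted p = 0.189, edgeR). The pseudogene Gm13857, on the opposite strand, shares 348 of the 1281 exon bases of Akr1b7. Cardiac actin Actc1 rose (1.23, adjusted p = 0.00079), beta-actin Actb fell (-0.63, adjusted p = 0.00653) and Actg2, the enteric smooth muscle actin, was not called (0.83, adjusted p = 0.087). The nonmuscle myosins Myh9 (-0.77) and Myh10 (-0.51) and transgelin 2 (Tagln2, -0.84) fell, all at an adjusted p of at most 0.0124. Rgs4, a relative of Rgs5, rose (1.09, adjusted p = 0.0400, edgeR) on 40 counts in the 4 control and 44 in the 4 miR-106b libraries together, and Pdgfra is given with the PDGF pathway. Cnn2 (-0.43, adjusted p = 0.0641), Cnn3 (-0.12, adjusted p = 0.713), Foxd2 (0.03, adjusted p = 0.950) and Foxd3 (1.06, adjusted p = 0.306, edgeR) were not called, and Tagln3 and Rbpjl did not pass the filter. How reads that match several of these genes were counted is not given in the sources used here, so a small share of their counts may belong to a relative.

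The wider lists, from which the 10 genes themselves were left out, were chosen with earlier results of these data known, and none had a gene called in Ago2-IP RNA. Their counts in polyA RNA stand against 19% higher and 21.5% lower over all genes tested, and nothing particular to a list is read from them. Of 17 mural and pericyte genes in polyA RNA 15 rose and none fell, with a median log2 change of 0.98. Vtn, which encodes vitronectin, rose by 1.60 (SE 0.24) from 9.95 ± 1.44 to 30.3 ± 11.4 CPM (SD, n = 4), and Ndufa4l2, a mitochondrial protein of pericytes, by 1.26 (SE 0.22). Of 24 contractile genes of smooth muscle 7 rose and 10 fell, with a median of -0.10. Des, the intermediate filament desmin, which heart muscle also makes, rose by 1.22 (SE 0.19) and the kinase gene Mylk4 by 1.22 (SE 0.19), while the actin cross-linkers Flna (-1.06, SE 0.18) and Actn1 (-0.86, SE 0.15) fell. Of SRF and 11 cofactors 5 rose and 2 fell. Myocd, which encodes myocardin, the coactivator of SRF in both smooth and heart muscle, rose by 1.20 (SE 0.20) and Mef2c by 1.20 (SE 0.25), and Klf4, known to oppose contractile genes, fell by 0.76 (SE 0.13) and Mkl1 by 0.54 (SE 0.12).

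Signalling lists were mixed, again beside 19% higher and 21.5% lower over all genes tested. Of 12 PDGF pathway genes 4 rose and 2 fell: the ligand gene Pdgfb rose by 1.25 (SE 0.21) and the alpha receptor Pdgfra by 0.81 (SE 0.15), and Nras (-1.10, SE 0.16) and Sos1 (-0.33, SE 0.12), which carry the signal to the MAP kinases, fell. Of 25 Notch genes tested 7 rose and 4 fell, near those shares. The endothelial ligand Dll4 rose by 1.34 (SE 0.23), the target gene Heyl by 1.33 (SE 0.22), and the receptor Notch2 (-0.54, SE 0.17) and the demethylase Kdm5a (-0.43, SE 0.13), a partner of Rbpj in repression, fell. Of 13 renal stromal progenitor genes tested 5 rose and 2 fell, among them Cxcl12 (1.45, SE 0.23), Tcf21 (1.10, SE 0.23), Smoc2 (-0.83, SE 0.15) and Ecm1 (-0.56, SE 0.17). Of 15 renin cell genes tested 9 rose and 2 fell, with Fxyd6 (1.36, SE 0.30), the adenosine receptor Adora1 (1.33, SE 0.30), the prostaglandin receptor Ptger4 (-0.56, SE 0.14) and the connexin 45 gene Gjc1 (-0.48, SE 0.15) at its ends. Beside these and the 19% of all genes that rose, 10 of 10 endothelial, 9 of 10 macrophage and 7 of 10 fibroblast markers rose in the same libraries and none fell.

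**Figure D4:**
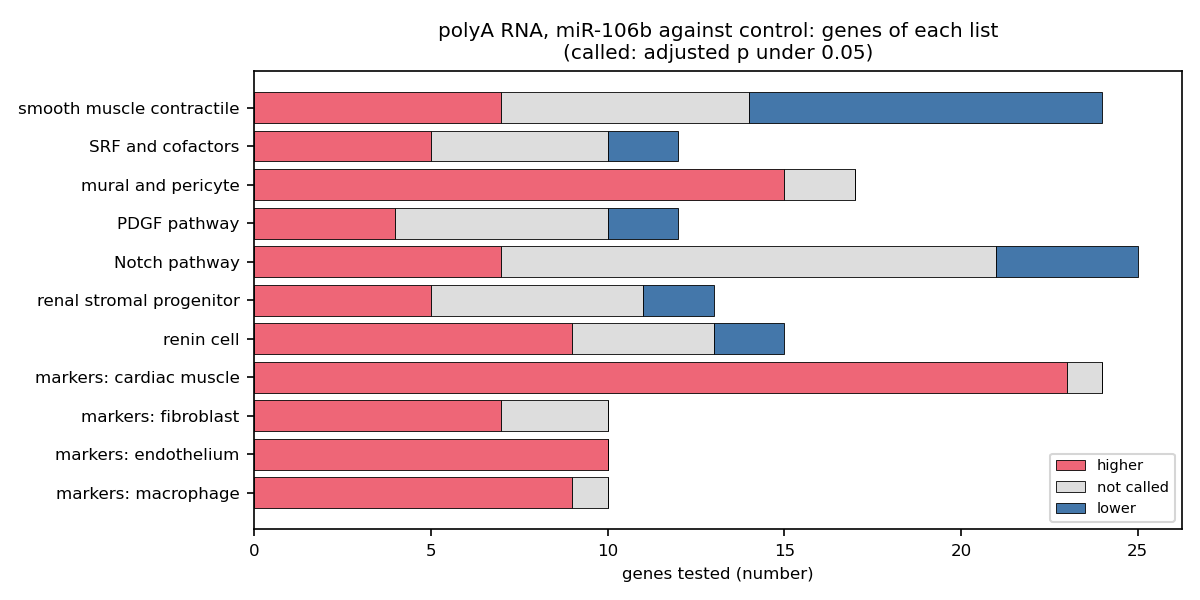
Number of genes (horizontal axis) of each list (vertical axis) that were higher, lower or not called in polyA RNA of miR-106b-transfected against control-transfected cells. Most of the mural and pericyte list (15 of 17) and of the marker lists of cardiac muscle (23 of 24) and endothelium (10 of 10) is higher, and the contractile list is split into 7 higher and 10 lower.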

How the data were processed

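Counts were those deposited by the authors: whole numbers of reads per gene for 46078 genes and 16 libraries, with no normalization. According to the methods and the submitters' processing notes, 50-base single-end reads without strand were cleared of ribosomal RNA, aligned to GRCm38 with TopHat2 (version 2.0.10 in the notes) and counted with HTSeq. Samples were grouped by their titles. Genes with at least 1 CPM in at least 3 of the 4 libraries of any group were kept (14897). Groups were compared in R 4.3.3 with edgeR 4.0.16 (robust quasi-likelihood F test, two-sided, TMM per comparison, Benjamini-Hochberg over all genes kept, threshold 0.05), and DESeq2 1.42.0 was an alternative. Standard errors were derived from log2 fold changes and F values. Levels are CPM after TMM within each RNA kind, or over all 16 libraries where stated. The text names all 10 genes, per list the 2 genes that rose most and the 2 that fell most in polyA RNA (adjusted p under 0.05, polyA mean of 5 CPM or more), the 2 most similar genes and the paralogs. The members and lists were chosen with earlier results of these data known. In simulated counts with 3-fold changes, 193 of 200 changed genes were recovered in polyA RNA with 11 false calls among 14897 genes, and 166 of 200 for the ratio with 10 false calls. The simulated libraries shared the same gene means apart from the changed genes, and the spread between replicates was the same for every gene and group. The data have neither property, so these rates do not carry over to them. Deviations of libraries with the same replicate number correlated between -0.38 and 0.22. They were not set against libraries of different numbers, so whether the numbers pair them was not settled. The replicate block was run as an alternative. No 2 replicates agreed within sampling noise. The level of 3 counts covers counting error only. Coordinates are GRCm38, and exon lengths are unions of GENCODE M21 exons.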

Additional observations from a re-analysis of the deposited data

Results flagged for a closer look

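In 3 of 36 groups of 4 libraries, the gap of 1 library to the other 3 was a large part of the group's range (Dixon's test at 95%), where chance gives about 1 in 20. These were the highest libraries of Myh11 in Ago2-IP miR-106b (60.8 CPM), of Pdgfrb in polyA control (143 CPM) and of Pdgfrb in Ago2-IP control (236 CPM). The last was close to the others of its group (233.1 to 233.2 CPM), which nearly coincide. The effect of miR-106b differed between Ago2-IP and polyA RNA by the interaction test for Myh11 (log2 -1.30), Cnn1 (-1.63), Pdgfrb (-1.10), Cspg4 (-1.54) and Rgs5 (-1.26). The call of Cnn1 was lost when any 1 of 11 libraries was left out.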

How the results depend on the processing

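Over all settings tried, 692 of 745 alternative values for the genes kept their direction and their side of the threshold, 21 lost the call, 13 gained it and 19 turned direction, and levels scaled to library size only moved by less than 1 SD in 40 of 40 cases. With TMM over all 16 libraries, added after seeing the data, 26 of 40 did, and Tagln in polyA control went from 494 to 436.5 CPM and Pdgfrb in Ago2-IP control from 234 to 255 CPM. The calls of Myh11, Pdgfrb, Cspg4 and Rgs5 in polyA RNA and in the ratio held in every setting run. In Ago2-IP RNA, 0 genes were called in the table as a whole, against 19 with no filter on low counts, 2 with DESeq2's Wald test, 1 with the replicate block and 0 to 40 with 1 library left out (8 without control replicate 4, 4 without miR-106b replicate 1, 40 without miR-106b replicate 4). The log2 change of Acta2 in Ago2-IP RNA turned to 0.00216 with filterByExpr. With 1 library left out, changes crossed 0 for Foxd1 in polyA RNA (-0.24 to 0.59), in Ago2-IP RNA for Acta2 (-0.033 to 0.012), Cspg4 (-0.10 to 0.017), Foxd1 (-0.11 to 1.53) and Rbpj (-0.19 to 0.082), between RNA kinds with miR-106b for Cnn1 (-0.11 to 0.67), and in the ratio for Foxd1 (-0.61 to 1.08) and Rbpj (-0.031 to 0.24). The cause was not tested. With the replicate block, Foxd1 lost its call between RNA kinds with miR-106b (-3.57, adjusted p = 0.0647) and Cnn1 its call in the ratio (-1.63, adjusted p = 0.0595), and no other call of the genes changed. Scaling to library size only moved the median of all genes from -0.06 to -0.35 between RNA kinds in control and from -0.04 to -0.19 with miR-106b, with 37.6% and 34.0% of calls higher in place of 48.3% and 48.2%. In polyA RNA 61.4% of calls were higher with all 16 libraries in 1 fit, against 47.0%, and in the ratio 46.3% with library size only, 44.9% with TMM within each RNA kind and 44.3% with no filter, against 27.7%. Low counts limit Akr1b7, Cnn1 and, in Ago2-IP RNA, Foxd1.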
